A study of Mus musculus with 3 samples.

Results

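Bile acid synthesis, bile acid uptake and the FXR-SHP regulatory loop were followed through 9 genes of the mouse liver. The rule names the genes by symbol and uses no measured value, although it was written with earlier results of these data known, and all 9 were found among the 23361 genes measured. They are Nr1h4 (the bile acid receptor FXR), Nr0b2 (SHP), Nr5a2 (LRH-1), Cyp7a1, Cyp8b1, Cyp27a1, Slc27a5, Baat and Slc10a1 (NTCP). Expression is given as FPKM, fragments per kilobase of transcript scaled to the mapped fragments of the library, which permits levels of different genes to be compared per length. All 9 genes passed the filter, which asked for an FPKM of 1 or more in any library, as did 10792 genes in all.

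The study compared 3 groups of male C57BL/6J mice aged 8 to 10 weeks, fasted before surgery and all opened by a midline laparotomy. The sham group had no occlusion and was left for 90 min before the liver was taken. In the warm ischemia (WI) group, the portal vein, hepatic artery and bile duct to the left and median lobes were clamped for 90 min. In the group with ischemia followed by reperfusion (IR), the same clamping for 90 min was released for 2 h. Each group is represented by 1 RNA-seq library of liver RNA, and the sources used here do not say whether RNA was pooled over mice. The sham livers were taken 2 h sooner after surgery than the IR livers, so the effects of reperfusion and of time cannot be told apart. With 1 library per group there is no replicate and no test between groups. Beside each FPKM stand the deposited 95% bounds, which express the error of Cuffdiff's count model and carry no spread between mice.

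Hepatocytes turn cholesterol into bile acids by a classical route that Cyp7a1 opens and an alternative route that uses Cyp27a1. Bile acids returning from the gut enter the hepatocyte largely through Slc10a1 and bind FXR, which switches on Nr0b2. SHP, the protein of Nr0b2, has no DNA-binding domain and represses Cyp7a1 and Cyp8b1 through partners such as LRH-1 and HNF4A. Inflammatory cytokines and FGF15 from the gut are further known repressors of Cyp7a1.

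The libraries differed in markers of sex, although all 3 are labelled male. Xist, transcribed from an inactive X chromosome, had an FPKM of 18.9 in the sham library, 20.1 in the WI library and 1.29 in the IR library. The summed FPKM of 4 Y-linked genes (Ddx3y, Eif2s3y, Kdm5d, Uty) was 0 in the sham library, 0.00849 in the WI library and 23.7 in the IR library. The sham and WI libraries therefore go against their label, and in both comparisons with the IR library sex markers cannot be told apart from reperfusion. The comparison of WI with sham is the only one between libraries alike in these markers. Sex-biased liver genes differed as well, since 5 male-biased genes summed to 56.9, 49.5 and 889 in sham, WI and IR, and 6 female-biased genes to 1344, 676 and 389. The label liver was borne out by 5 of 6 hepatocyte markers (Apoa1, Ttr, Cps1, Tat, Fah), whose sum lay between 10835 and 16641, while Alb is listed at 0 in all 3 libraries because its locus held too many fragments to be processed. The 6 cholangiocyte markers (Krt19, Krt7, Epcam, Sox9, Cftr, Spp1) summed to 54.3, 62.02 and 93.8, nearly all of it Spp1. Of 5 Kupffer cell markers, 4 were measured (Clec4f, Vsig4, Cd5l, Marco) and summed to 406, 204 and 129. Marco went against this sum for IR versus WI, with an FPKM of 20.9, 12.6 and 25.3 in sham, WI and IR. The 4 of 5 neutrophil markers that were measured summed to 23.7, 17.9 and 420, with Mpo at 0 in the IR library. Sinusoidal endothelial markers (4 genes) summed to between 70.6 and 100.1, most of it Clec4g, while Lyve1 among them had an FPKM of 11.2, 2.73 and 33.4 with bounds apart in all 3 comparisons. Stellate markers (4 genes) summed to between 100.4 and 142, most of it Dcn, and single markers went both ways. Lrat had an FPKM of 4.96, 4.12 and 1.46 in sham, WI and IR, with bounds apart for IR versus sham. Col1a1 had 1.05, 1.05 and 2.69, with bounds that overlapped. In bulk tissue, fewer cells of a type and less RNA per cell cannot be told apart, and the part of sex and cell mixture in the values that follow was not tested.

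**Figure D1:**
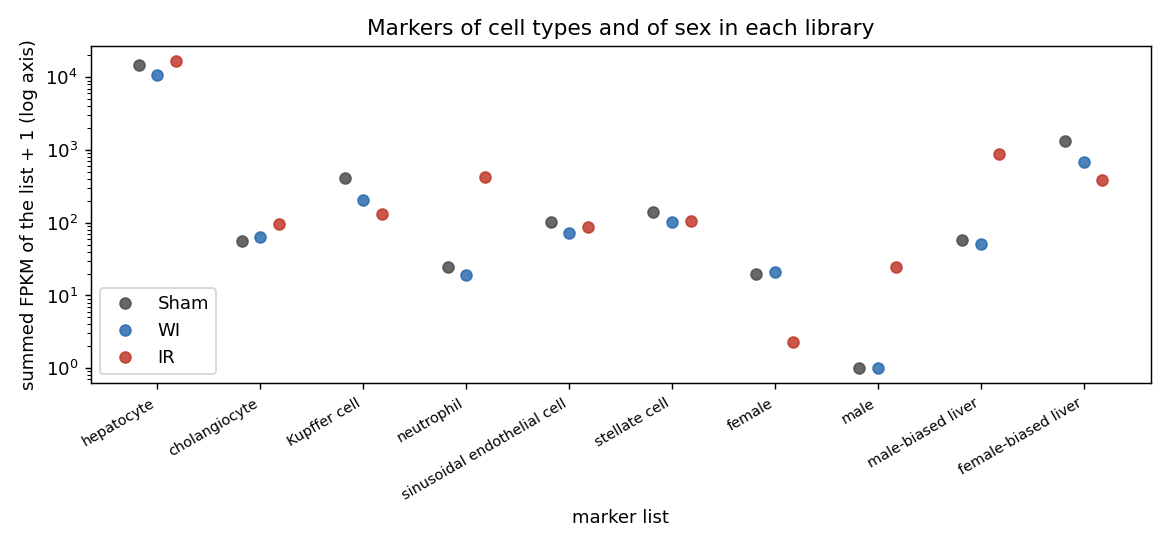
The horizontal axis lists the marker lists and the vertical axis gives the summed FPKM of each list plus 1 on a log scale, with 1 point per library. The IR library stands apart in the female list (Xist, 1.29), the male list (23.7), the male-biased list (889) and the neutrophil list (420), while sham and WI lie close together in these 4 lists.

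Among the 9 genes, levels spanned a wide range and the order was similar in the 3 libraries. Slc10a1, Slc27a5 and Cyp27a1 held the top 3 places in each library, and Nr5a2 and Nr0b2 the last 2. The highest gene exceeded the lowest 49.1-fold in the sham library, 42.6-fold in the WI library and 79.7-fold in the IR library. Most neighbours in this order could not be separated, because the bounds of 7 of the 8 neighbouring pairs overlapped in the sham library, all 8 in the WI library and 7 in the IR library. The exceptions were Nr1h4 above Nr0b2 in the sham library and Cyp7a1 above Nr5a2 in the IR library. The summed FPKM of the 9 genes was 1506, 1471 and 1513 in sham, WI and IR.

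**Figure D2:**
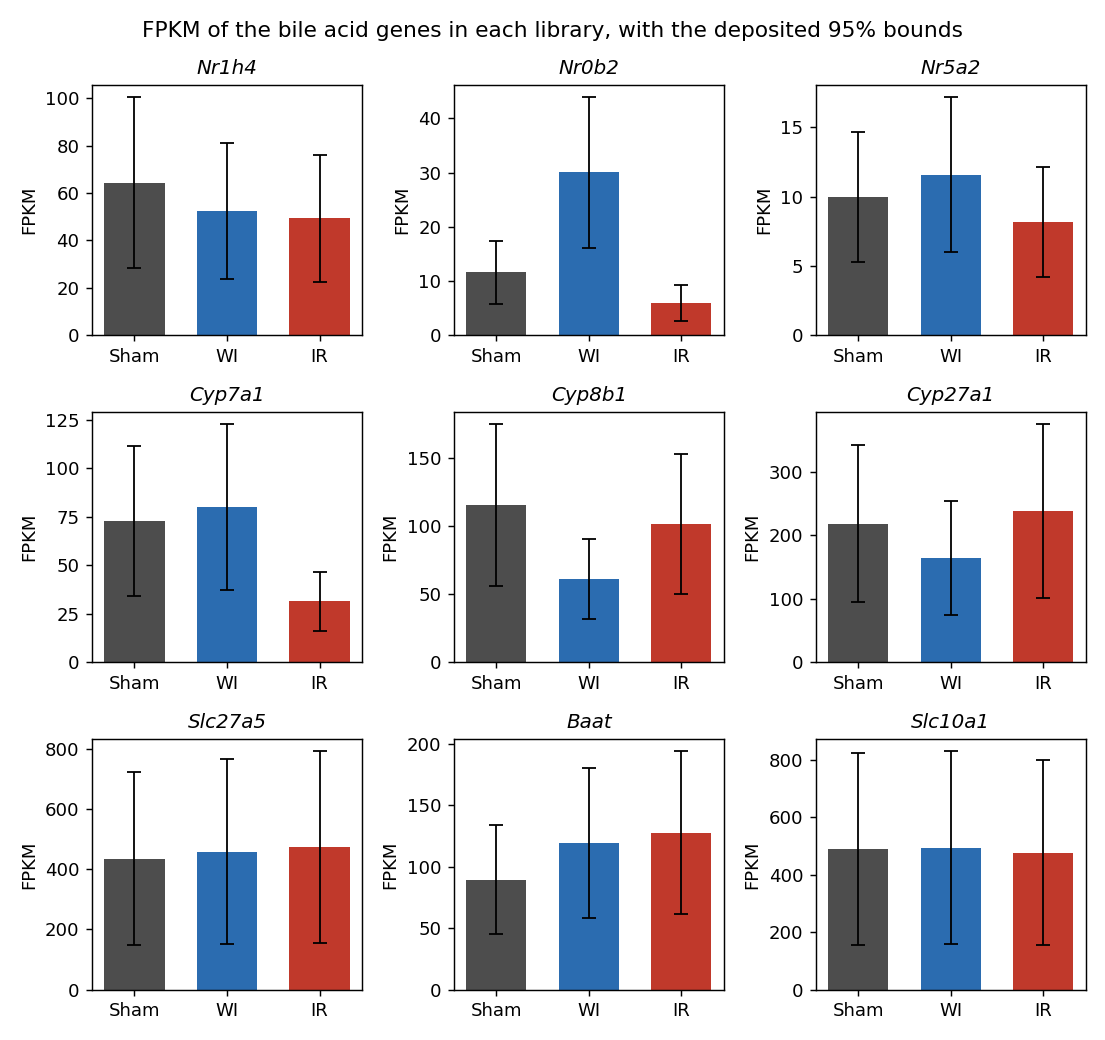
Each panel shows 1 gene, with FPKM on the vertical axis (starting at 0) and the 3 libraries on the horizontal axis, and the error bars are the deposited 95% bounds. Nr0b2 is highest in WI (30.02) and lowest in IR (5.99), Cyp7a1 is lowest in IR (31.6), Cyp8b1 is lowest in WI (61.2), and Slc10a1 and Slc27a5 as deposited differ little across the libraries.

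Nr1h4 encodes FXR, the nuclear receptor that senses bile acids, and lies on chromosome 10 of mm10 from 89454234 to 89533622. Its FPKM was 64.4 in the sham library (95% bounds 28.2 to 100.5), 52.4 in the WI library (23.9 to 80.9) and 49.4 in the IR library (22.6 to 76.1). The 3 ranges overlapped almost entirely, and the highest library exceeded the lowest 1.30-fold. On the scale of log2(FPKM + 1) the difference for WI versus sham was -0.29, with a 95% interval propagated from the bounds of -1.40 to 0.82, so a 2-fold difference in the downward direction lies within the model error. For IR versus sham it was -0.38 as deposited and -0.96 after the rescaling to TPM described further on.

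Nr0b2 encodes SHP, the repressor that FXR induces, and lies on chromosome 4 from 133553390 to 133556536. Its FPKM was 11.6 in the sham library (95% bounds 5.75 to 17.5), 30.02 in the WI library (16.1 to 44.0) and 5.99 in the IR library (2.65 to 9.32). It was thus highest after ischemia and lowest after reperfusion, and its range in the IR library lay wholly below that in the WI library, while the ranges of sham and WI overlapped narrowly. The difference for WI versus sham was 1.30 in log2(FPKM + 1) (95% interval from the bounds 0.37 to 2.23), which is higher than in 99.6% of the tested genes. The difference for IR versus WI was -2.15 (-3.10 to -1.20), a value below which only 0.158% of the tested genes lay. For IR versus sham it was -0.85 (-1.81 to 0.11) as deposited, short of 2-fold, but -1.43 after the rescaling to TPM described further on, past 2-fold. Nr1h4 differed little as deposited. The ratio of Nr1h4 to Nr0b2 within a library went from 5.55 in sham (95% interval from the bounds 2.61 to 11.8) to 1.74 in WI (0.853 to 3.57) and 8.25 in IR (3.79 to 17.96).

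The start of Nr0b2 is shown because it is the gene with the widest range of the 9 and a known meeting point of the regulators. Windows of 250 bases before and 50 bases after the RefSeq transcription start (GRCm38.p6, the assembly of mm10) were available for 6 of the 9 genes, in 8 windows. Cyp7a1, Slc27a5 and Baat had no window and were not searched. The 120 bases before the start of Nr0b2, at chr4:133553256-133553375 on the plus strand, hold the letters TCAAGG at 2 places, in capitals. They begin 68 and 35 bases before the start.
Nr0b2: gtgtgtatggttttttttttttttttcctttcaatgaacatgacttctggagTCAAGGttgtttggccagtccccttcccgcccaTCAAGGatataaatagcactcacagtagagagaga
TCAAGG is the core of the sequence that LRH-1 recognises. Searched on both strands, it was present in 14.4% of all 32851 windows, so its presence alone is common. No other window of the 6 genes searched held it, and none held the longer TCAAGGTCA (0.423% of all windows, each of which also holds TCAAGG). The absence of these letters says nothing of the factor itself.

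Nr5a2 encodes LRH-1, the activator of Cyp7a1 and Cyp8b1 through which SHP acts, and lies on chromosome 1 from 136843584 to 136960448. Its FPKM was 9.97 in the sham library (95% bounds 5.28 to 14.7), 11.6 in the WI library (5.97 to 17.2) and 8.19 in the IR library (4.22 to 12.2). The order of the libraries was that of Nr0b2 with a narrower range of 1.41-fold, and all 3 ranges overlapped. The difference for IR versus WI was -0.45 in log2(FPKM + 1) (95% interval from the bounds -1.35 to 0.44) as deposited, and -0.98 after rescaling to TPM.

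Cyp7a1 encodes the rate-limiting enzyme of the classical route and lies on chromosome 4 from 6265612 to 6275631. Its FPKM was 73.0 in the sham library (95% bounds 34.4 to 111.5), 80.1 in the WI library (37.4 to 122.9) and 31.6 in the IR library (16.4 to 46.9). Sham and WI were close, and the IR library was lower than both, although its range still overlapped theirs. The difference for WI versus sham was 0.13 in log2(FPKM + 1) (95% interval from the bounds -0.94 to 1.20). For IR versus WI it was -1.31 (-2.33 to -0.30), and 0.51% of the tested genes lay lower. For IR versus sham it was -1.18 (-2.19 to -0.17), with 1.25% of the tested genes lower. In the WI library, where Nr0b2 was highest, the FPKM of Cyp7a1 was 1.10 times that of sham, and in the IR library both genes had their lowest value.

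Cyp8b1 encodes the sterol 12-alpha-hydroxylase that leads to cholic acid and lies on chromosome 9 from 121914356 to 121916305. Its FPKM was 115 in the sham library (95% bounds 55.9 to 175), 61.2 in the WI library (31.7 to 90.7) and 101 in the IR library (49.9 to 152). The WI library was the low one, unlike for Cyp7a1, and all 3 ranges overlapped. The difference for WI versus sham was -0.90 in log2(FPKM + 1) (95% interval from the bounds -1.91 to 0.10), just short of 2-fold, and 1.45% of the tested genes lay lower. For IR versus WI the difference was 0.72 (-0.28 to 1.71). The order of the 2 hydroxylases differed between libraries. The FPKM of Cyp8b1 was 1.58 times that of Cyp7a1 in the sham library (95% interval from the bounds 0.755 to 3.30), 0.763 times in the WI library (0.372 to 1.57) and 3.20 times in the IR library (1.59 to 6.44). The interval of the WI library ended just below the start of that of the IR library, and the interval of sham overlapped both.

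The 120 bases before the start of Cyp8b1, at chr9:121916306-121916425 on the minus strand, are shown because Cyp8b1 is an enzyme whose transcription SHP is known to repress. The capitals mark CAAAGTCCA, letters that HNF4A recognises, which begin 67 bases before the start.
Cyp8b1: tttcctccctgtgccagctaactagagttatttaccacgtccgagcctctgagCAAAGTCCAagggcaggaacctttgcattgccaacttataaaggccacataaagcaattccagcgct
On either strand, CAAAGTCCA was present in 0.475% of all windows and in no other window of the 6 genes searched, which did not include Cyp7a1. A match of letters does not show that a factor was bound.

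**Figure D3:**
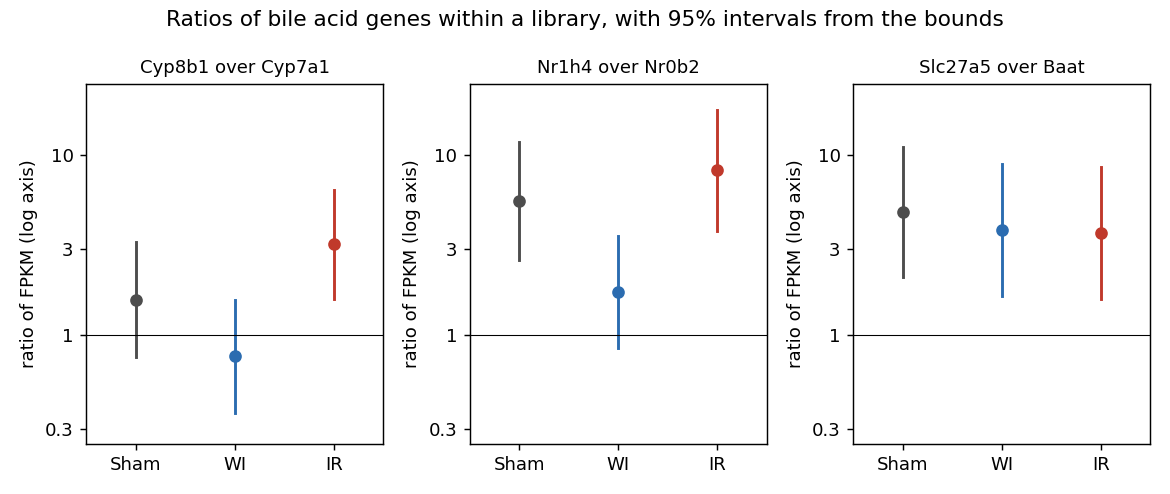
The vertical axis of each panel gives the ratio of the FPKM of 2 genes within a library on a log scale, the horizontal axis the library, and the lines are 95% intervals propagated from the deposited bounds. Cyp8b1 over Cyp7a1 runs from 0.763 in WI to 3.20 in IR, Nr1h4 over Nr0b2 from 1.74 in WI to 8.25 in IR, and Slc27a5 over Baat stays between 3.703 and 4.85.

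Cyp27a1 encodes the mitochondrial sterol 27-hydroxylase, which opens the alternative route and acts on the side chain in both, and lies on chromosome 1 from 74713574 to 74737890. Its FPKM was 219 in the sham library (95% bounds 95.1 to 342), 165 in the WI library (75.5 to 255) and 239 in the IR library (102 to 375). The WI library was again the lowest, and all 3 ranges overlapped. The difference for WI versus sham was -0.40 in log2(FPKM + 1) (95% interval from the bounds -1.53 to 0.72). Relative to Cyp7a1, its FPKM was 2.996 times as high in the sham library, 2.06 times in the WI library and 7.55 times in the IR library.

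Slc27a5 and Baat encode the bile acid CoA ligase and the enzyme that then joins bile acids to taurine or glycine. The FPKM of Slc27a5 (chromosome 7, 12988346 to 12998192) was 435 in the sham library (95% bounds 147 to 723), 458 in the WI library (152 to 764) and 473 in the IR library (155 to 791). That of Baat (chromosome 4, 49489418 to 49506558) was 89.6 in the sham library (44.9 to 134), 119 in the WI library (58.0 to 180) and 128 in the IR library (61.6 to 194). The 3 libraries could not be separated for either gene. For Baat the difference for IR versus sham was 0.51 in log2(FPKM + 1), with a 95% interval from the bounds of -0.52 to 1.54.

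Slc10a1 encodes NTCP, the sodium-dependent carrier that takes up conjugated bile acids from sinusoidal blood, and lies on chromosome 12 from 80953185 to 80968079. Its FPKM was 489 in the sham library (95% bounds 155 to 823), 494 in the WI library (158 to 829) and 477 in the IR library (156 to 798). As deposited it varied least of the 9 genes, with the highest library 1.04-fold above the lowest, but not after rescaling to TPM, where it differed by -0.60 for IR versus WI and by -0.62 for IR versus sham. Its bounds are also among the widest in relation to the level, and for the difference for IR versus sham (-0.04 in log2(FPKM + 1)) the interval from -1.42 to 1.34 includes a 2-fold difference in either direction.

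Counted over the 9 genes, 1 (Nr0b2, higher) differed at least 2-fold in FPKM + 1 for WI versus sham, against 1.85% of all tested genes in either direction and 0.751% in the higher direction. For IR versus WI 2 genes did so (Nr0b2 and Cyp7a1, both lower), against 7.21% of all tested genes in either direction and 1.43% in the lower direction. For IR versus sham it was 1 gene (Cyp7a1, lower), against 7.5% in either direction and 2.15% in the lower direction. Bounds that did not overlap were found for Nr0b2 for IR versus WI only, against 3.61% of all tested genes in either direction and 0.398% in the lower direction, while 0.676% of all tested genes had such bounds for WI versus sham and 3.82% for IR versus sham. The median difference of the 9 genes was 0.07 for WI versus sham, -0.05 for IR versus WI and -0.19 for IR versus sham in log2(FPKM + 1), and over all tested genes it was 0.02, 0.03 and 0.05. In the same order 6, 4 and 3 of the 9 genes were higher as deposited, beside 5671, 5660 and 5867 of the 10792 tested genes. After the rescaling to TPM described further on, 5, 1 and 0 of the 9 were higher. That rescaling also moved the median of all tested genes by -0.03, -0.48 and -0.51, so these counts are not read as a trait of the 9 genes. The 3 comparisons share libraries in pairs, so that a single high value of Nr0b2 in the WI library enters 2 of them.

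**Figure D4:**
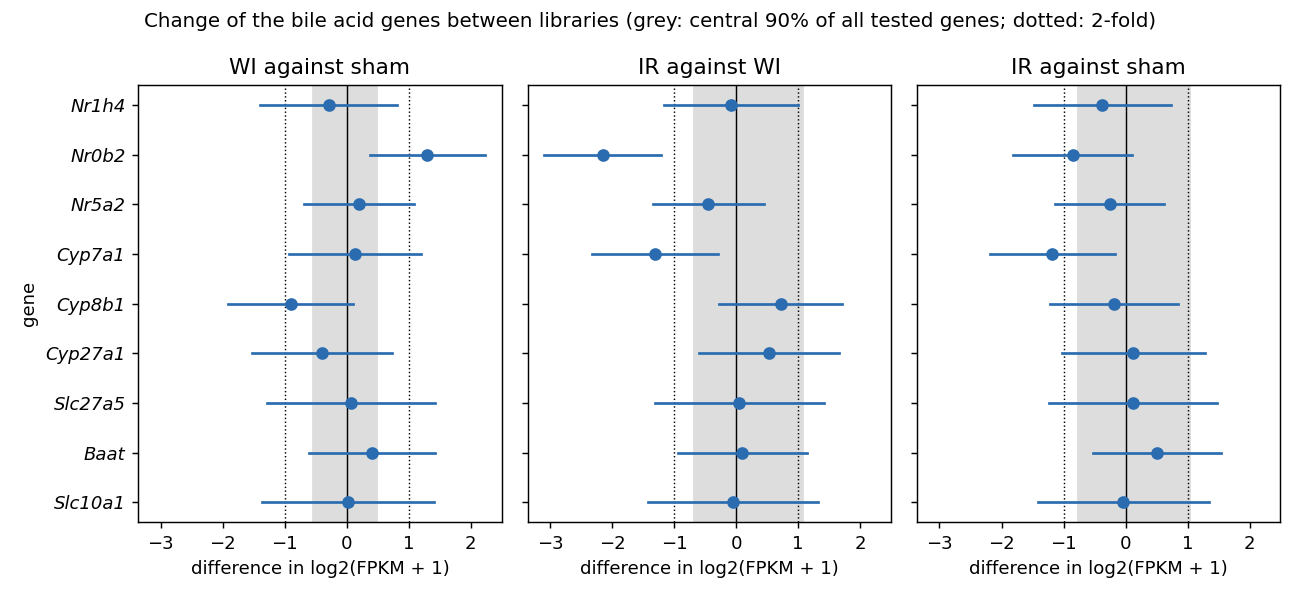
Points give the difference in log2(FPKM + 1) of each gene on the horizontal axis, lines its 95% interval propagated from the bounds, the grey band the central 90% of all tested genes and the dotted lines 2-fold, with 1 panel per comparison. Only Nr0b2 (1.30) lies past 2-fold for WI against sham, Nr0b2 (-2.15) and Cyp7a1 (-1.31) for IR against WI, and Cyp7a1 (-1.18) for IR against sham.

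FPKM in the IR library depends on the scaling. When FPKM was rescaled so that every library had the same sum (TPM), the median of all tested genes moved by -0.48 for IR versus WI and by -0.51 for IR versus sham, and the all-gene calls changed from 624 higher and 154 lower to 385 higher and 1185 lower for IR versus WI, and from 577 and 232 to 319 and 1554 for IR versus sham. Cyp27a1, Slc27a5 and Baat, which were higher in the IR library than in both others as deposited, were lower than in both after this rescaling. Nr0b2 and Cyp7a1 were lower in the IR library than in both others on either scale.

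The other genes of bile acid handling were read from 6 lists holding 67 genes, of which 66 were found and 60 passed the filter. Of the genes counted as higher below, Slc51b and Ch25h passed it only through libraries in which they were high. For WI versus sham 2 of the 60 were at least 2-fold higher and 1 lower (5%, against 1.85% of all tested genes). For IR versus WI 4 were higher and 4 lower (13.3%, against 7.21%), and for IR versus sham 5 were higher and 5 lower (16.7%, against 7.5%). With TPM scaling these splits were 2 higher and 1 lower for WI versus sham, 3 and 16 for IR versus WI, and 4 and 17 for IR versus sham, against 2.56%, 14.5% and 17.4% of all tested genes in either direction. The median of the 60 genes was 0.00, -0.06 and -0.12 in the same order in log2(FPKM + 1). As deposited, the all-gene shares were larger, 2.58%, 9.25% and 9.58%, when only the 6630 genes that reached an FPKM of 5 were counted. The 60 genes were not recounted at that limit, so the size of their contrast with all genes depends on the background chosen.

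Exporters went both ways for WI versus sham. Abcc3, Abcc4 and Abcb4 were lower in the WI library, with differences of -0.46, -0.23 and -0.33 in log2(FPKM + 1), and Abcc2 and Abcb1a were higher, with 0.11 and 0.65, all short of 2-fold. Slc51b and Abcb11 had the largest differences of the 2 transport lists in the higher direction. Slc51b, the beta subunit of the basolateral exporter OST and a known FXR target, had an FPKM of 0.733 in the sham library (95% bounds 0 to 1.47), 5.18 in the WI library (1.68 to 8.68) and 4.36 in the IR library (1.31 to 7.42). Its range in the WI library lay wholly above that in the sham library, and the difference was 1.83 in log2(FPKM + 1), higher than in 99.9% of the tested genes. Slc51b passed the filter only through the WI and IR libraries, so its place among the tested genes is not separate from this difference. Its partner subunit Slc51a was listed at 0 in all 3 libraries. Abcb11, the canalicular bile salt export pump and another FXR target, had an FPKM of 58.9 in the sham library (27.2 to 90.5), 106 in the WI library (44.1 to 168) and 91.1 in the IR library (39.1 to 143). The ranges of Abcb11 overlapped, its difference for WI versus sham was 0.84 (95% interval from the bounds -0.29 to 1.97), and 98.8% of the tested genes lay lower. In the IR library both exporters had values near those of WI, with differences for IR versus WI of -0.20 for Slc51b and -0.22 for Abcb11.

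Of the 16 genes that passed the filter in the basolateral and canalicular transport lists, 1 was at least 2-fold higher (Slco1a1) and 2 were lower (Abcc2 and Abcb1a) for IR versus WI. Over all tested genes the share was 7.21% in either direction and 1.43% in the lower direction. Abcc2, the canalicular pump for bilirubin conjugates, had an FPKM of 87.3 in the sham library (95% bounds 37.1 to 138), 94.3 in the WI library (39.5 to 149) and 42.6 in the IR library (20.5 to 64.7), a difference for IR versus WI of -1.13 in log2(FPKM + 1). Abcb1a, a multidrug pump, had an FPKM of 3.95 in the sham library (2.06 to 5.83), 6.76 in the WI library (3.63 to 9.90) and 2.36 in the IR library (1.16 to 3.56), and its range in the IR library lay wholly below that in the WI library. Slco1a1, a basolateral organic anion carrier that is male-biased in mouse liver, had an FPKM of 14.5 in the sham library (7.76 to 21.2), 9.17 in the WI library (4.92 to 13.4) and 37.9 in the IR library (19.3 to 56.5). It is itself 1 of the 5 male-biased genes summed above, so its course is not separate from that of the list. Slco1b2, with the highest mean FPKM of the basolateral list, had an FPKM of 300 in the sham library, 345 in the WI library and 185 in the IR library.

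Of the 15 other enzymes of synthesis, 14 passed the filter and 0 were past 2-fold for WI versus sham, against 1.85% of all tested genes. In the IR library 9 of the 14 were higher than in WI, as were 5660 of all 10792 tested genes. By at least 2-fold 2 of the 14 were higher (Cyp7b1 and Ch25h), against 7.21% of all tested genes in either direction. Ch25h passed the filter only through the IR library, so its place among the 14 is not separate from its call. Cyp7b1, the oxysterol hydroxylase of the alternative route, had an FPKM of 8.31 in the sham library (95% bounds 4.26 to 12.4), 10.02 in the WI library (5.21 to 14.8) and 75.0 in the IR library (38.1 to 112). Its difference for IR versus WI was 2.79 in log2(FPKM + 1), with ranges that did not overlap. Cyp7b1 is a known male-biased gene of mouse liver, and the sex markers differed in the same direction. Ch25h, which makes 25-hydroxycholesterol, had an FPKM of 0.213 in the sham library (0 to 0.429), 0.0629 in the WI library (0 to 0.159) and 4.49 in the IR library (1.87 to 7.11). Cyp39a1, an oxysterol hydroxylase that is female-biased in mouse liver, had an FPKM of 30.5, 17.2 and 14.2 in sham, WI and IR, a difference for IR versus sham of -1.05. Scp2 and Akr1c6, with the highest mean FPKM of this list, were short of 2-fold in each comparison.

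**Figure D5:**
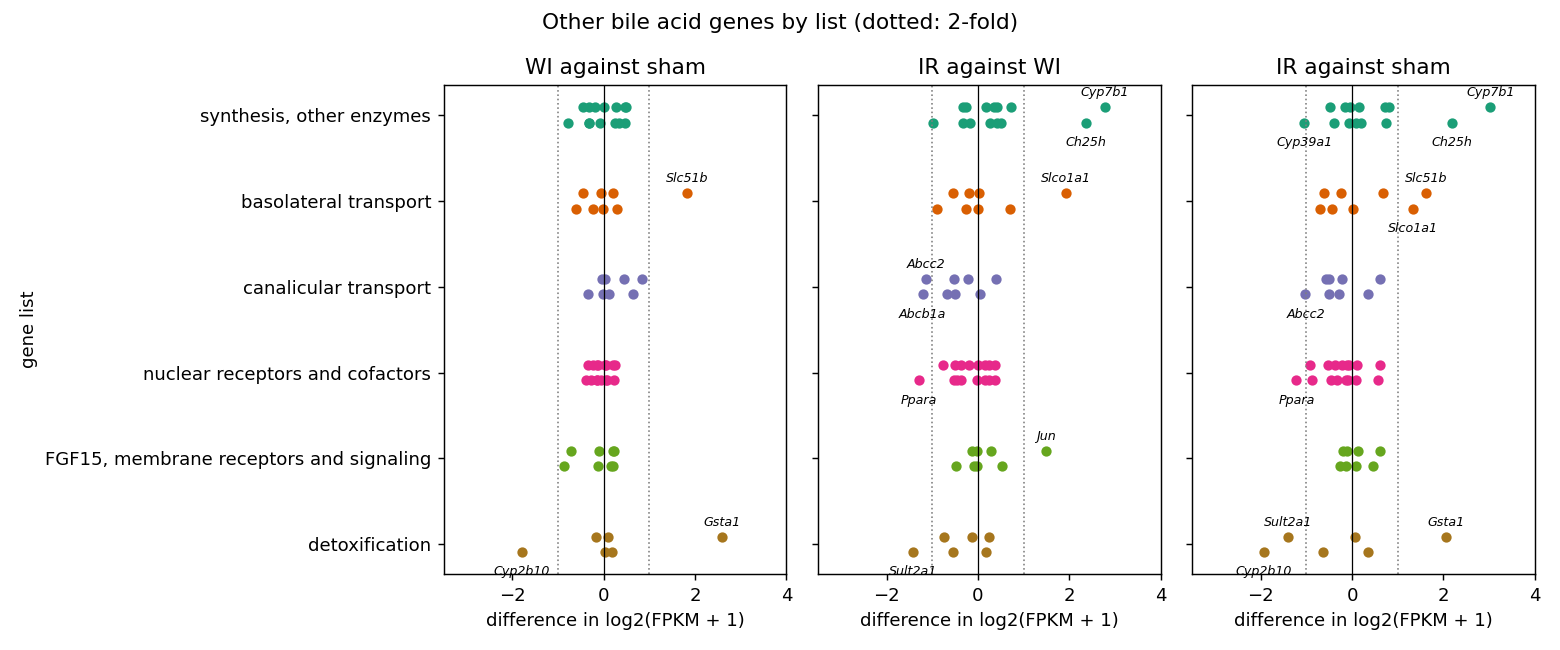
Each point is 1 of the 60 listed genes that passed the filter, placed by its difference in log2(FPKM + 1) on the horizontal axis and its list on the vertical axis, with 1 panel per comparison, dotted lines at 2-fold and names for genes past them. Slc51b (1.83), Gsta1 (2.60) and Cyp2b10 (-1.79) lie past 2-fold for WI against sham, and Cyp7b1 (2.79) lies farthest out for IR against WI.

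Of 18 listed nuclear receptors and cofactors 16 passed the filter, 0 were past 2-fold for WI versus sham (against 1.85% of all tested genes), and 1 was lower for IR versus WI (against 7.21% in either direction), Ppara, the fatty acid receptor. With so few genes these counts do not set the list apart from all genes. Its FPKM was 41.2 in the sham library (95% bounds 16.6 to 65.9), 43.2 in the WI library (17.8 to 68.7) and 17.2 in the IR library (8.03 to 26.3), and the difference for IR versus WI was -1.28 in log2(FPKM + 1). Hnf4a had an FPKM of 144, 122 and 136 in sham, WI and IR, and Rxra, the partner of FXR, 70.8, 71.9 and 55.7. Among signaling genes, Fgf15, the gut hormone, was listed at 0 in all 3 libraries, and its liver receptor Fgfr4 and coreceptor Klb were within 0.22 of sham in both other libraries on the log2 scale. Jun, a transcription factor downstream of the JNK kinases, had an FPKM of 71.7 in the sham library (35.2 to 108), 39.1 in the WI library (20.3 to 57.9) and 111 in the IR library (50.7 to 171), and was the only signaling gene past 2-fold for IR versus WI (1.48).

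Of 7 detoxification genes 6 were found. Gsta1, a glutathione transferase that shares sequence with neighbouring family members, had an FPKM of 1.25 in the sham library (95% bounds 0.318 to 2.19), 12.6 in the WI library (6.07 to 19.2) and 8.36 in the IR library (3.73 to 13.0). Cyp2b10, a target of the receptor CAR, went the other way, with an FPKM of 18.6 in the sham library (9.98 to 27.2), 4.67 in the WI library (2.19 to 7.15) and 4.16 in the IR library (1.91 to 6.41). The ranges of sham and WI did not overlap for either gene. Sult2a1, a sulfotransferase for bile acids and a female-biased gene that shares reads with its paralogs, had an FPKM of 196, 200.2 and 73.9 in sham, WI and IR, a difference for IR versus WI of -1.43 in log2(FPKM + 1). Cyp3a11 had the highest mean FPKM of this list, with 1361, 1202 and 1420 in sham, WI and IR.

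The genes with a pattern most like that of Nr0b2 and Cyp7a1 over the 3 libraries were found by the distance between their centred values of log2(FPKM + 1), among genes with a mean FPKM within 4-fold. For Nr0b2 the nearest of 5654 genes were Anks4b, Irgm2 and Tgtp2, at distances of 0.48, 0.49 and 0.49. Anks4b had an FPKM of 12.003 in sham, 26.7 in WI and 8.86 in IR. For Cyp7a1 the nearest of 2676 genes included Ppara and Gm10768, at distances of 0.05 and 0.08. Cyp7a1 thus had close neighbours in pattern, and those of Nr0b2 lay farther off. The distance was not scaled for the size of the changes, and Nr0b2 had the widest range of the 9 genes. This contrast is therefore not separate from the extreme values of Nr0b2.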

How the data were processed

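Liver RNA of 3 groups (sham, WI, IR) was sequenced, 1 library each. The authors mapped read pairs to mm10 with TopHat2 2.0.9, and the deposited FPKM with 95% bounds came from Cuffdiff (Cufflinks 2.0.2) at default parameters. A locus with too many fragments is listed at 0, which held for 1 gene in the sham library, 1 in the WI library and 7 in the IR library. Such genes are missing from the sums used for TPM. The authors report the read pairs of each library, with the lowest share of uniquely aligned pairs in the IR library. As counts per gene are not given, the number of fragments behind a single value is unknown. FPKM cannot separate less RNA of a gene from more RNA of others.

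From these tables, differences of log2(FPKM + 1) were computed over the genes that reached an FPKM of 1 in any library. The pseudocount of 1 understates differences of low genes. A gene was called at 2-fold in FPKM + 1, and bounds were compared for overlap. Intervals of differences were propagated from the upper bounds, assuming independent libraries and a normal quantile of 1.96. Starts in the files count from 0 and were raised by 1. Promoter windows were taken from RefSeq. No test was made, and the measures were tested on simulated data.

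The 9 genes, lists and markers were chosen with earlier results of these data known, and the motifs after the sequences had been read. Named were the 9 genes, listed genes past 2-fold in any comparison, and the 3 genes nearest in pattern to each called gene, of which 1 is not reported here. Slc51a, Abcb11, Abcc3, Abcc4, Abcb4, Slco1b2, Scp2, Akr1c6, Hnf4a, Rxra, Fgf15, Fgfr4, Klb and Cyp3a11 were named after their values were seen. Python 3.11.15, numpy 2.4.6, pandas 2.3.3 and matplotlib 3.10.9 were used.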

Additional observations from a re-analysis of the deposited data

How the results depend on the processing

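With 1 library per group, no replicate could be left out. No paired analysis was possible because each group has a single library. Over the 9 genes and 3 comparisons, the 27 differences moved by less than the error from the bounds with pseudocounts of 0.1 and 0.01, median ratio scaling, no filter, an FPKM of at least 5, and status OK in all libraries, and only that of Slc10a1 for WI versus sham (0.01) changed sign, with median ratio scaling. Rescaling to a common sum moved 11 of the 27 and changed the sign of 7, none of them called at 2-fold. With it, 2 genes (Nr0b2 and Cyp7a1) instead of 1 (Cyp7a1) differed 2-fold for IR versus sham. Bounds were apart for 2 genes (Nr0b2 and Cyp7a1) instead of 1 (Nr0b2) for IR versus WI. For IR versus sham they were apart for 1 gene (Cyp7a1) instead of 0. The median of the 9 genes was then -0.60 for IR versus WI and -0.77 for IR versus sham. At 1.5-fold, 2 genes were counted for WI versus sham and 2 for IR versus sham (1 and 1 at 2-fold). At 4-fold the counts were 0 for WI versus sham, 1 for IR versus WI (2 at 2-fold) and 0 for IR versus sham. The share of all tested genes called for WI versus sham was 1.85% as reported, 3.54% and 4.14% with the lower pseudocounts, 7.41% at 1.5-fold and 0.222% at 4-fold. For IR versus WI it was 7.21%, and 11.5%, 12.3%, 19.8% and 1.8% in the same order, and for IR versus sham 7.5%, and 13.2%, 13.9%, 23.8% and 1.54%. Rescaling to a common sum gave 2.56%, 14.5% and 17.4% for the 3 comparisons. Raising the filter to an FPKM of 5, which left 6630 genes, gave 2.58%, 9.25% and 9.58%.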
